A study of Homo sapiens with 14 samples.

Results

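The 3 libraries described here hold the RNA of pancreatic β-like cells made by 2 routes, out of 14 libraries in the series. ePP-β cells (2 libraries) were made from expandable pancreatic progenitors (ePPs), and SC-β cells (1 library) were made from human pluripotent stem cells (hPSCs) by continuous differentiation. The members were chosen by sample title, and values were set side by side on the scale log2(TPM + 1). A gene was called only where both ePP-β libraries lay on the same side of SC-β, while list medians cover all compared genes. TPM scales each library to a fixed total after dividing by transcript length. Of 60624 gene identifiers listed per library, 18931 reached 1 TPM in the ePP-β mean or in SC-β and were compared, 14582 of them protein-coding.

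All 3 libraries came from MEL1, a human embryonic stem cell line that carries a GFP reporter at the insulin locus. ePPs were grown on feeder cells in a medium with EGF, bFGF, a TGFβ receptor inhibitor and I-BET151, which blocks BET bromodomain proteins, before they were differentiated into ePP-β cells. The passage of the ePPs that gave the ePP-β libraries was not given in the sources used here. SC-β cells were grown as suspended aggregates, passed through the progenitor stage PP2 without expansion, and received no I-BET151. The labels place ePP-β and the 4 ePP libraries (passages 9 and 21, 2 libraries each) in batch 2, and SC-β and the single PP2 library in batch 1. Route and batch therefore cannot be told apart, SC-β has no replicate, and every comparison below is a description without a test. No source says whether the ePP-β libraries came from separate differentiations.

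During pancreas development, progenitors of the foregut endoderm give rise to acinar cells, which make digestive enzymes, to duct cells, and to endocrine cells, which pass through a short-lived precursor state marked by NEUROG3. Gut endoderm next to the pancreas forms enteroendocrine cells by much the same transcription factors, so that islet and gut hormones share a regulatory programme. Mesenchyme surrounds the pancreatic epithelium in the embryo and makes fibrillar collagens and other matrix proteins.

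The label of β-like cells was checked first. INS, which encodes insulin, measured 10916 and 17374 TPM in the ePP-β libraries, against 20658 TPM in SC-β, against at most 0.0104 TPM in ePP and a value listed at 0 in PP2. PDX1 (53.8 and 54.6 TPM against 58.5 TPM) and NKX6-1 (143 and 138 against 181 TPM), transcription factors of progenitors and β cells, differed little from SC-β on this scale. MAFA, a factor of mature β cells, was at 2.05 and 1.75 TPM in ePP-β against 0.864 TPM in SC-β, and was called higher only after the GC centring described below. MAFA was low in all groups, at 0.890 to 1.18 TPM in ePP and 1.12 TPM in PP2. Most β cell markers were thus present in both kinds of cells, but IAPP (islet amyloid polypeptide), which β cells store with insulin, was at 0.463 and 0.538 TPM in ePP-β against 9.62 TPM in SC-β. As these are bulk samples, fewer cells of a type and less RNA per cell cannot be told apart.

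A gene was called higher or lower where both ePP-β libraries differed from SC-β by more than 2-fold on the log2(TPM + 1) scale in the same direction. By this rule 2830 genes were higher in ePP-β (14.9% of those compared) and 2877 were lower (15.2%). The ePP-β libraries lay above SC-β for 9585 genes, below it for 7485 and on both sides for 1861. Centring each library on its median moved the share of calls that were higher from 49.6% to 37.1%. The 2 ePP-β libraries differed from each other by more than 2-fold for 946 genes (5%), and correlated at r = 0.975 across genes, compared with 0.838 and 0.825 for each of them with SC-β. Genes are not independent replicates, and these values describe the 3 libraries only. Cytosolic ribosomal protein genes took 15.9% and 14.8% of the listed TPM in ePP-β and 9.78% in SC-β. The mitochondrial pseudogene MTATP8P1 held 3.85% of ePP-β replicate 2 and was at 3.88 TPM in replicate 1.

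The differences moved with the base composition of the transcripts. In the decile of protein-coding genes with the lowest GC content (median 36.9%), the median difference was 0.90 and 35.7% of genes were higher in ePP-β. In the decile with the highest GC content (median 64.4%), the median difference was -1.37 and 61.8% of genes were lower. The same slope was present between the progenitors of these batches, ePP and PP2, from 0.40 to -1.45, and was absent between the 2 ePP-β libraries, from 0.03 to 0.02. Subtracting the median difference of genes of like GC content (GC centring) left 1350 genes higher (7.16%) and 1713 lower (9.09%). It kept 33.1% of the genes called higher and 42.5% of those called lower. Counts after GC centring are therefore given for the lists below, with the named genes whose call it changed. The cause of the slope was not tested.

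**Figure D1:**
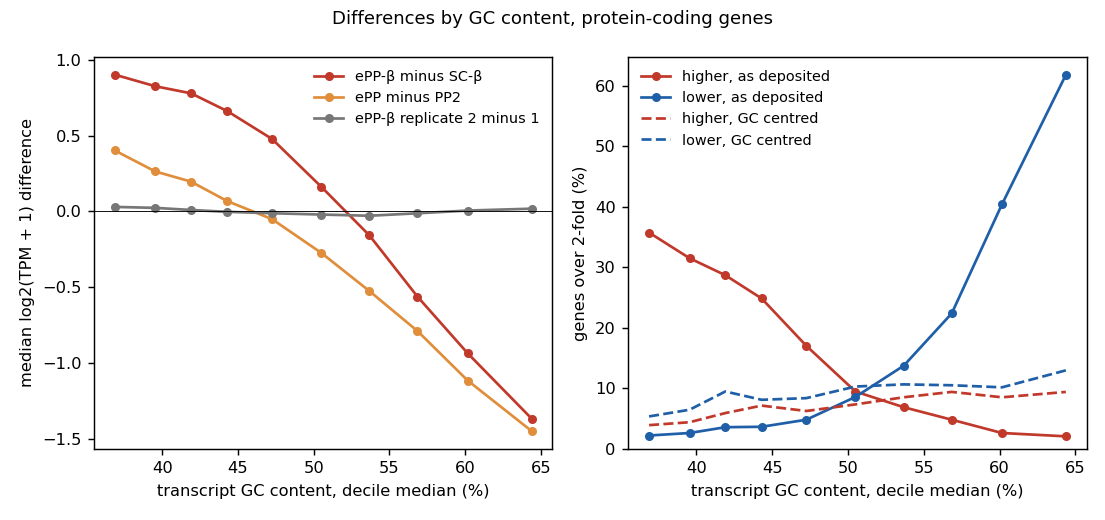
Median log2(TPM + 1) difference (left) and percentage of genes over 2-fold apart (right) against transcript GC content, for deciles of the protein-coding genes. Lines on the left are ePP-β minus SC-β, ePP minus PP2 and ePP-β replicate 2 minus replicate 1. The median difference goes from 0.90 to -1.37 with GC content for ePP-β against SC-β, and stays near 0 between the ePP-β replicates.

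The endocrine programme showed no common direction. Of 68 compared genes in 7 lists, 21 were higher (30.9%) and 15 lower (22.1%) in ePP-β, beside 14.9% and 15.2% of all genes. Calls were thus more frequent than over all genes in both directions. The median difference was 0.13 beside 0.17 over all compared genes. With GC centring the counts were 16 and 14, beside 7.16% and 9.09% of all genes. Within the programme, however, the lists went different ways, as the plot of all lists shows.

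**Figure D2:**
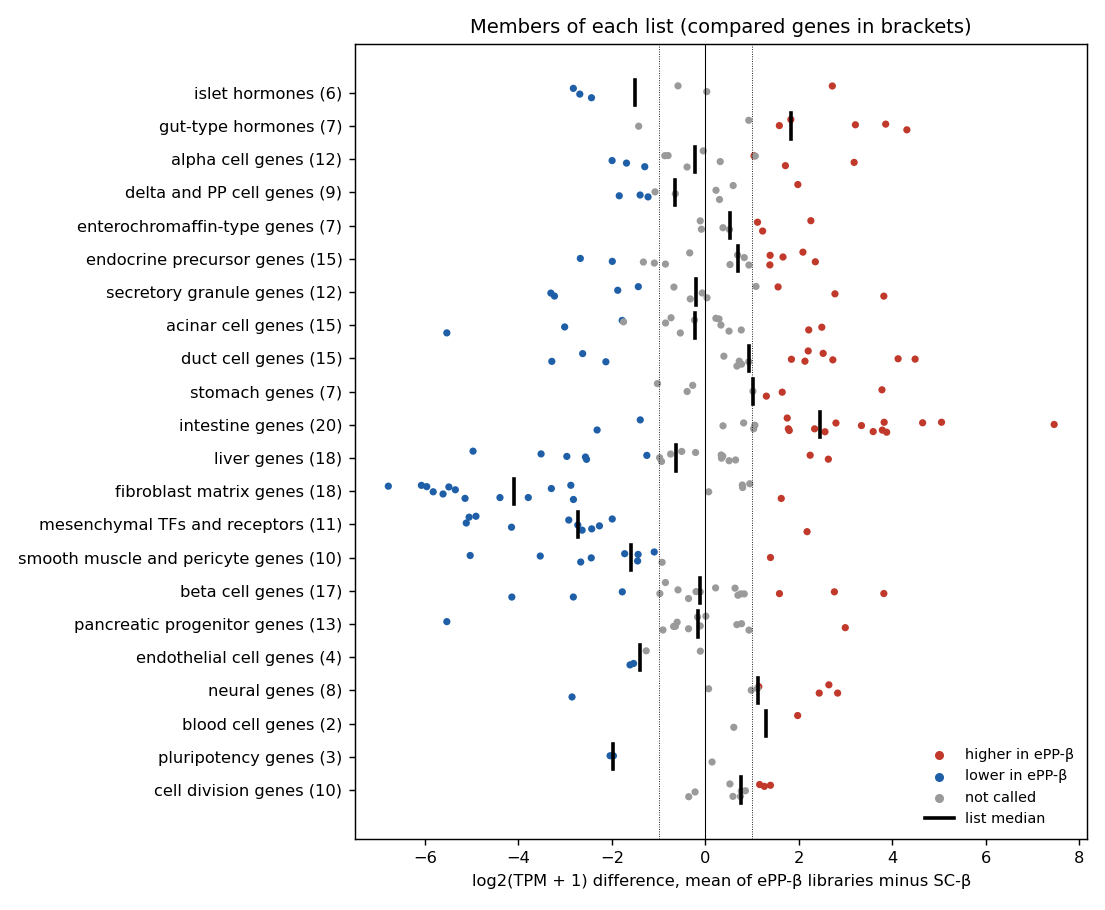
Each point is a compared gene of a list, placed by its log2(TPM + 1) difference (mean of the 2 ePP-β libraries minus SC-β); colour gives the call, black bars the list medians, and dotted lines the 2-fold limits. Intestine genes centre at 2.45 and fibroblast matrix genes at -4.09, while endocrine lists lie between -1.51 and 1.83.

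Among the islet hormones, GCG, which encodes glucagon, the hormone of α cells (chr2:162142882-162152404, minus strand, GRCh38), was the most abundant in SC-β. Its level was 14107 and 13360 TPM in ePP-β, against 74281 TPM in SC-β, a log2 difference of -2.44. It took 7.89% of the listed TPM of SC-β and 1.54% and 1.42% of the ePP-β libraries. The ratio of GCG to INS was 1.29 and 0.769 in ePP-β and 3.60 in SC-β. SC-β was therefore the library in which glucagon transcripts most exceeded insulin transcripts, and the ePP-β libraries lay on different sides of equality.

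SST (somatostatin, of δ cells) was at 391 and 468 TPM in ePP-β against 2757 TPM in SC-β, a difference of -2.69. PPY (pancreatic polypeptide) showed the opposite direction, at 45.8 and 57.4 TPM against 6.96 TPM, a difference of 2.72. GHRL (ghrelin) was level, at 42.9 and 49.4 TPM against 45.1 TPM. In all, 1 of 6 islet hormones was higher (16.7%) and 3 were lower (50%), with the same counts after GC centring. Over all genes 14.9% were higher and 15.2% lower.

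Hormones of gut enteroendocrine cells were mostly higher in ePP-β. Of 9 listed, 7 were compared, 5 were higher (71.4%) and 0 lower, beside 14.9% and 15.2% of all genes. The median difference was 1.83, and 6 were higher after GC centring, beside 7.16% of all genes. GIP, the glucose-dependent insulinotropic polypeptide of duodenal K cells (chr17:48958554-48968596, minus strand), was at 19.8 and 33.8 TPM in ePP-β against 0.357 TPM in SC-β, a difference of 4.31. NTS (neurotensin, of N cells) was at 72.4 and 87.6 TPM against 4.57 TPM. Unlike GIP, it was already at 63.4 to 109 TPM in the ePP libraries and at 193 TPM in PP2. TAC1, the precursor of substance P, was at 10.4 and 11.9 TPM against 0.311 TPM.

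PYY (peptide YY) was at 137 and 128 TPM in ePP-β against 43.6 TPM in SC-β. SCT (secretin) was at 15.5 and 15.3 TPM against 3.62 TPM. GAST (gastrin), the most abundant gut-type hormone in both kinds of cells, was at 1320 and 1423 TPM against 720 TPM and passed the 2-fold limit only after GC centring (1.66). MLN (motilin) lay below SC-β in both ePP-β libraries, at 7.58 and 15.9 TPM against 31.4 TPM, without a call. CCK (cholecystokinin) and INSL5 stayed under 1 TPM in the 3 libraries, so that not all gut hormones were present.

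Serotonin-producing enterochromaffin-type cells arise in stem cell cultures that form β-like cells. Of 7 genes listed for them, 3 were higher in ePP-β (42.9%) and 0 were lower, as after GC centring. Over all genes 14.9% were higher and 15.2% lower, and 7.16% and 9.09% after GC centring. TPH1, which makes the first step of serotonin synthesis, was at 140 and 245 TPM in ePP-β against 37.9 TPM in SC-β (2.26). LMX1A, a transcription factor of these cells, was at 140 and 146 TPM against 65.5 TPM. DDC, which completes serotonin synthesis, was at 388 and 391 TPM against 166 TPM and lost its call with GC centring. SLC18A1, a vesicular monoamine transporter, was at 34.5 and 36.5 TPM against 27.1 TPM, and FEV, a further factor, was called higher only after GC centring. All 7 genes were more than 2-fold higher in ePP-β than in every ePP library and in SC-β than in PP2, as were 12.8% and 12.7% of all compared genes.

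α cell genes other than GCG were mixed, with 3 of 12 higher and 3 lower (25% each way), and 2 and 2 after GC centring. The factors IRX1 (29.9 and 34.0 against 105 TPM) and IRX2 (23.5 and 33.5 against 70.5 TPM) were lower, but neither call was kept after GC centring. DPP4, a cell-surface peptidase that cleaves incretins, was higher at 319 and 326 TPM against 34.6 TPM and kept its call. Of 9 genes of δ and PP cells, 1 was higher (11.1%) and 3 lower (33.3%), and 1 and 2 after GC centring. Over all genes 14.9% were higher and 15.2% lower. HHEX, a factor of δ cells, was at 10.9 and 8.37 TPM against 15.5 TPM.

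Endocrine precursor genes included several that differed strongly between the 2 kinds of cells. NEUROG3, the factor that commits progenitors to the endocrine fate, was at 5.65 and 5.51 TPM in ePP-β against 25.2 TPM in SC-β, a difference of -1.99. HES6, a gene downstream of it, was at 23.4 and 26.1 TPM against 163 TPM (-2.67). PAX4, a repressor that favours β and δ cells over α cells, was higher instead, at 35.7 and 65.5 TPM against 8.68 TPM (2.35). The call for NEUROG3 was lost after GC centring, and those for HES6 and PAX4 were kept. ISL1 and PROX1, both endocrine factors, were higher (1.38 and 1.39) and lost their calls. In all, 5 of 15 genes were higher (33.3%) and 2 lower (13.3%), beside 14.9% and 15.2% of all genes. The counts were 1 and 2 after GC centring.

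The transcripts of secretory granule proteins were unequal. CHGA (chromogranin A) was level, at 16018 and 14843 TPM in ePP-β against 16156 TPM in SC-β. PCSK1, the prohormone convertase that begins the cleavage of proinsulin (chr5:96390333-96434143, minus strand), was at 180 and 159 TPM in ePP-β against 11.1 TPM in SC-β, a difference of 3.82. PCSK1N, which encodes the proSAAS peptide that inhibits this enzyme, showed the reverse, at 707 and 641 TPM against 6656 TPM (-3.30). The transcripts of convertase and inhibitor thus differed in opposite directions, while PCSK2, the second convertase, was at 152 and 132 TPM against 178 TPM. PCSK1N was at 24.6 to 45.8 TPM in ePP and 402 TPM in PP2. The progenitors of the same batches thus differed in the same direction for PCSK1N, whose difference was -1.89 after GC centring. PCSK1 was at most 0.0725 TPM in ePP and at 0.377 TPM in PP2, and its difference was 3.15 after GC centring.

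Granins were split in the same way. SCG2 (secretogranin II) was higher at 974 and 1247 TPM against 161 TPM, and SCG3 was higher by 1.56. CHGB (149 and 126 against 505 TPM), SCG5 and VGF (11.3 and 8.72 against 101 TPM) were lower. VGF was at most 0.390 TPM in ePP and at 19.1 TPM in PP2. Of the 12 granule genes, 6 were lower in ePP than in PP2 and 1 was higher, beside 18% and 4.72% of all genes. With GC centring SCG3 lost its call and the other 6 called granule genes kept theirs. Of 17 β cell genes, which share members with these lists, 3 were higher and 3 lower (17.6% each way, near the shares over all genes), and 5 and 2 after GC centring. SLC30A8, the zinc transporter of insulin granules, was at 522 and 468 TPM against 72.1 TPM. G6PC2, an islet glucose-6-phosphatase, was at 9.04 and 6.59 TPM against 153 TPM, the widest gap of a β cell gene in either direction.

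**Figure D3:**
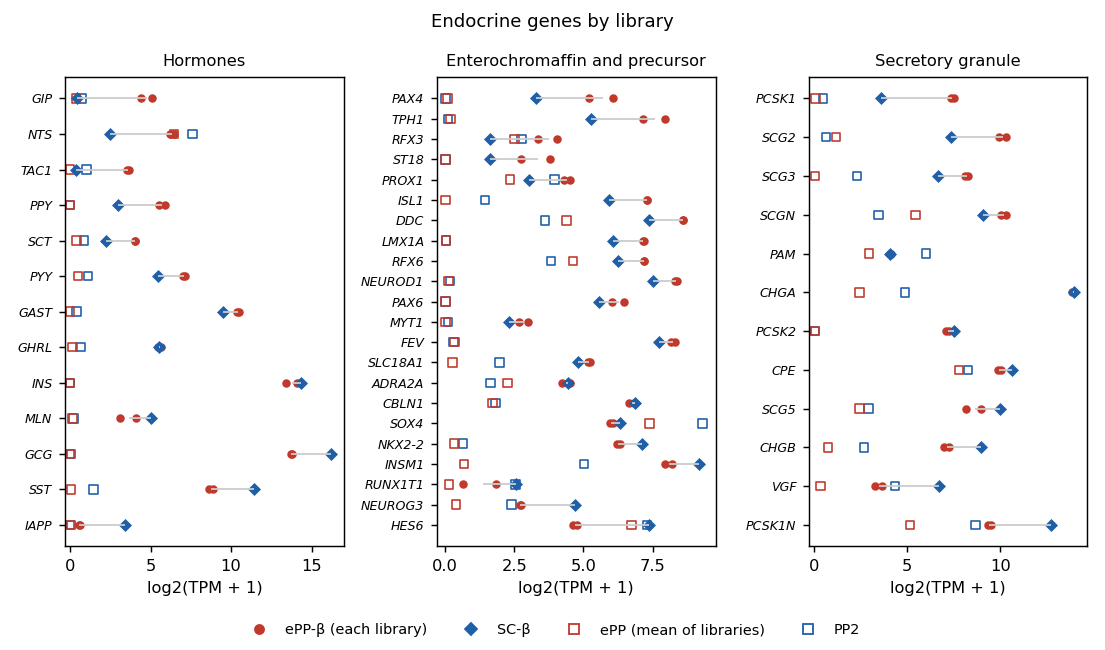
Levels of compared hormone, enterochromaffin-type, endocrine precursor and secretory granule genes on the log2(TPM + 1) scale. Filled circles are the 2 ePP-β libraries, diamonds SC-β, and open squares the mean of 4 ePP libraries and PP2. The lists of α cell genes and of δ and PP cell genes are not drawn. Genes are ordered by the difference between ePP-β and SC-β. GIP (4.31) heads the hormones and IAPP (-2.82) ends them, and PCSK1 (3.82) and PCSK1N (-3.30) mark the ends of the granule genes.

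Of 46 acinar and duct genes of the exocrine programme, 30 were compared. In ePP-β 9 were higher (30%) and 6 lower (20%), and 10 and 7 after GC centring. Over all genes 14.9% were higher and 15.2% lower. Among 28 acinar genes, 13 stayed below 1 TPM, among them the pancreatic lipase gene PNLIP, which was listed at 0 in the 3 libraries, and the chymotrypsinogen genes CTRB1 and CTRB2. Of the 15 acinar genes compared, 2 were higher (13.3%) and 3 lower (20%), and 3 and 4 after GC centring. PRSS2 (anionic trypsinogen) was nevertheless higher in ePP-β, at 34.5 and 50.5 TPM against 8.24 TPM, while its near-identical copy PRSS1 was at 3.68 and 4.54 TPM against 6.38 TPM. Reads of these copies can be split by the authors' counting, so that both values are uncertain.

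Transcription factors of acinar cells went both ways. PTF1A, which drives acinar fate and also marks early pancreatic progenitors (chr10:23192312-23194245, plus strand), was at 0.202 and 0.500 TPM in ePP-β against 61.0 TPM in SC-β, a difference of -5.53. It was at 21 TPM in PP2 and at most 0.119 TPM in ePP, so that the progenitors of the same batches differed in the same direction. BHLHA15 (MIST1), a factor of mature acinar cells, was at 0.892 and 0.679 TPM against 13.4 TPM. NR5A2, which cooperates with PTF1A, was higher in ePP-β, at 12.5 and 11.7 TPM against 1.33 TPM, and was at 16.9 to 23.3 TPM in ePP. All 3 kept their calls after GC centring. SPINK1, a trypsin inhibitor, was at 102 and 302 TPM in the 2 ePP-β libraries and 594 TPM in SC-β, and was called lower only after GC centring.

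Duct genes were more often higher in ePP-β. Of 15 compared, 7 were higher and 3 lower (46.7% and 20%, beside 14.9% and 15.2% of all genes), with the same counts after GC centring and a median of 0.93. CFTR, the chloride channel of duct cells (chr7:117287120-117715971, plus strand), was at 52.9 and 51.7 TPM in ePP-β against 1.38 TPM in SC-β, a difference of 4.49. It was at 17.6 to 40.7 TPM in ePP and 3.00 TPM in PP2. TSPAN8, a tetraspanin of ductal and gut epithelium, was at 90.2 and 81.4 TPM against 3.98 TPM (4.12). SLC4A4, a bicarbonate cotransporter, and CA2, a carbonic anhydrase, were higher by 2.73 and 2.20, so that genes of bicarbonate and chloride transport were among the higher members. In ePP, SLC4A4 was at 45.4 to 59.6 TPM and CA2 at 69.1 to 86.8 TPM, above both ePP-β libraries. In PP2 they were at 15.1 and 22.9 TPM.

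Other duct genes did not share this direction. AQP1 (a water channel) was at 0.699 and 1.30 TPM against 18.3 TPM, and SPP1 (osteopontin) at 7.54 and 8.62 TPM against 38.6 TPM. SOX9, the factor of duct cells and progenitors, was at 60.5 and 52.1 TPM against 32.5 TPM, below the 2-fold limit. KRT19, a keratin of ducts, was at 589 and 529 TPM against 293 TPM and passed the limit only after GC centring. Within the batches, SC-β was more than 2-fold lower than PP2 for 9 of the 15 duct genes, whereas 19.5% of all genes were. ePP-β was lower than every ePP library for 2 of them, beside 4.19% of all genes.

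Intestine genes gave the widest separation above SC-β. Of 25 listed, 20 were compared, 14 were higher (70%) and 2 lower (10%), beside 14.9% and 15.2% of all genes. The median difference was 2.45. With GC centring 15 were higher and 2 lower, beside 7.16% and 9.09% of all genes. The summed level of the list was 1190 and 1420 TPM in ePP-β, 189 TPM in SC-β, 280 to 334 TPM in ePP and 368 TPM in PP2. The list was thus lowest in SC-β and highest in ePP-β, and APOA4 and FABP1 made up most of the ePP-β sum.

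APOA4, an apolipoprotein of chylomicrons made by enterocytes (chr11:116820700-116823304, minus strand), was at 409 and 511 TPM in ePP-β against 1.60 TPM in SC-β, a difference of 7.46. The difference widened to 8.48 after GC centring. It was at most 0.755 TPM in ePP and at 9.18 TPM in PP2, so that the high level was found in ePP-β alone among these 5 groups. A pair of fatty acid-binding proteins was higher too. FABP2, the intestinal fatty acid-binding protein, was at 33.7 and 32.1 TPM against 0.0216 TPM (5.05). FABP1, shared by liver and gut, was at 343 and 456 TPM against 27.0 TPM (3.82), and was at 71.1 to 98.7 TPM in ePP.

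CDH17 (liver-intestine cadherin) was at 65.5 and 71.5 TPM against 1.77 TPM (4.65). CDHR5, a cadherin of microvilli, was at 24.2 and 22.2 TPM against 0.643 TPM (3.88). LCT (lactase) and ALPI (intestinal alkaline phosphatase), enzymes of the brush border, were higher by 3.34 and 2.56 at 8.14 to 10.0 TPM. CDHR5, LCT and ALPI are genes of absorptive cells, but which cells held these transcripts was not tested. CDH17 was at 13.2 to 19.2 TPM in ePP and 44.5 TPM in PP2. OLFM4, which marks intestinal stem cells, was at 18.9 and 16.4 TPM against 0.350 TPM, but at 57.2 to 77.0 TPM in ePP, so that it was lower in ePP-β than in its progenitors.

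Not every intestinal identity gene followed. CDX2, the master factor of intestine, was at 17.4 and 15.3 TPM in ePP-β against 7.33 TPM in SC-β, and passed the limit only after GC centring. It was at 94.2 to 95.4 TPM in ePP and 55.5 TPM in PP2. CDX1, the goblet cell mucin MUC2 and the stem cell receptor LGR5 stayed under 1 TPM in the 3 libraries. SPINK4, a goblet cell gene, was lower at 5.84 and 3.26 TPM against 25.9 TPM. ePP-β was higher than every ePP library for 15 of the 20 genes and lower for 2, beside 12.8% and 4.19% of all genes. SC-β was higher than PP2 for 2 and lower for 6, beside 12.7% and 19.5% of all genes.

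**Figure D4:**
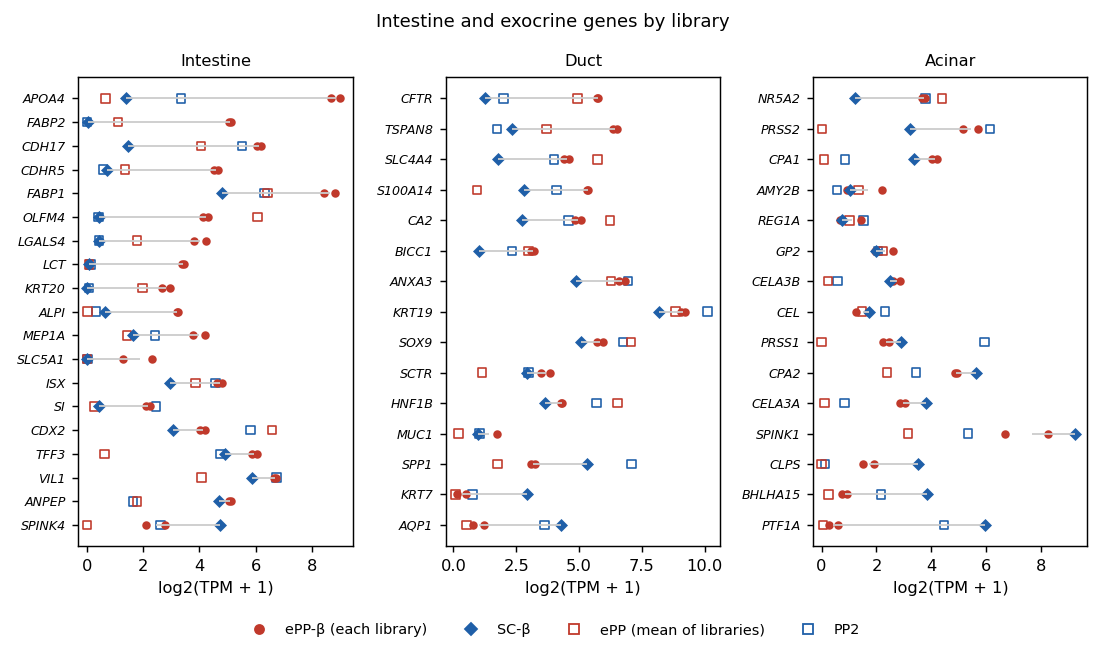
Levels of intestine, duct and acinar genes on the log2(TPM + 1) scale, drawn as for the endocrine genes, with circles for each ePP-β library, diamonds for SC-β and open squares for the progenitors. APOA4 (7.46) and CFTR (4.49) head their panels, and PTF1A (-5.53) ends the acinar panel.

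Sequence before the start sites of the intestine genes was searched for short motifs of gut endoderm factors, as members that differ together. RefSeq promoters (GRCh38.p14) were found for 10 of the 14 higher genes, and the 250 bases before the start were read on both strands. The core GTTAAT of hepatocyte nuclear factor 1 was in 5 of the 10 (FABP1, KRT20, OLFM4, SI and SLC5A1, the last 2 without a call after GC centring), in 1 of 18 mesenchymal genes that were lower, and in 7.50% of 27305 symbols. Among the other 4 cores, TTTAT (of CDX factors) was in 4 of the 10 genes and 37.6% of symbols, and CAAAG (part of the HNF4 site) in 7 of the 10 and 47.2%. The GATA cores AGATAA and TGATAA were in 1 and 4 of the 10 and in 11.1% and 8.22% of symbols. The reverse complement of either GATA core can share bases with TTTAT. The 5 motifs and the sequences shown were chosen with these matches known, and a match is not a bound site. The 3 promoters below are shown as genes with the HNF1 core that kept their call after GC centring, with the core or its reverse complement in capitals, 5′ to 3′ on the strand of the gene.
FABP1, chr2:88128063-88128312, minus strand: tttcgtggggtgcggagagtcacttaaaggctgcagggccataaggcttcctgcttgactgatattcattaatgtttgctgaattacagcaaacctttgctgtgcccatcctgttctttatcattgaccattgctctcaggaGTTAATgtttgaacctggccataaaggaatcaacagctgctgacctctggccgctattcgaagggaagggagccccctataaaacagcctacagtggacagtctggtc
KRT20, chr17:40885243-40885492, minus strand: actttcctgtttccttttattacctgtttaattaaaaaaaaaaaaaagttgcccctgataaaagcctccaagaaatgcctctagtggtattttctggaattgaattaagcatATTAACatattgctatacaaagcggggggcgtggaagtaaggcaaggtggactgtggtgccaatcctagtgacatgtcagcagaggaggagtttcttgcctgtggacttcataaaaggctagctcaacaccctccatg
OLFM4, chr13:53028563-53028812, plus strand: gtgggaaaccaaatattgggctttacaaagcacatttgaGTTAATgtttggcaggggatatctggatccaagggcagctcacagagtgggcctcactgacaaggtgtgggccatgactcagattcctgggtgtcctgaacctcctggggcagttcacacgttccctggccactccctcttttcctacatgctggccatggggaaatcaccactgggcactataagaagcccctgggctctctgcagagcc
KRT20, a keratin of differentiated gut epithelium, was at 5.30 and 6.67 TPM in ePP-β against 0.00305 TPM in SC-β. The core lies nearer the start in FABP1 than in the other two.

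The gut programme pooled the intestine list with stomach and liver genes. Of its 45 compared genes, 19 were higher (42.2%) and 8 lower (17.8%), beside 14.9% and 15.2% of all genes. The median was 0.82, and the counts after GC centring were 23 and 11. Stomach genes were few. Of 17 listed, 10 were not compared, including the mucin genes MUC5AC and MUC6 and the acid pump genes ATP4A and ATP4B, all near 0. Of the 7 compared, 3 were higher (42.9%) and 0 lower, and 3 and 1 after GC centring. CTSE, a protease of gastric surface cells, was at 14.7 and 14.3 TPM against 0.127 TPM (3.78), and TFF2, a trefoil peptide of gastric neck cells, was at 15 and 20.3 TPM against 4.91 TPM. SOX2, the factor of foregut and stomach, was at 10.4 and 9.03 TPM against 13.0 TPM.

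Genes of the liver, which also arises from foregut endoderm, tended the other way. Of 18 compared, 2 were higher (11.1%) and 6 lower (33.3%), beside 14.9% and 15.2% of all genes. The median was -0.62, and the counts after GC centring were 5 and 8. ALB (albumin) was at 54.9 and 42.2 TPM in ePP-β against 560 TPM in SC-β (-3.51). AHSG (fetuin A) was at 0.463 and 0.315 TPM against 42.4 TPM (-4.97), and the fibrinogen chain genes FGA and FGG were lower (-2.54 and -2.56). APOB, which gut and liver use to build lipoproteins, was higher instead, at 32.5 and 33.2 TPM against 4.47 TPM (2.63). AFP (α-fetoprotein), a marker of fetal liver and yolk sac, was at 744 and 780 TPM against 1502 TPM, and was called lower only after GC centring.

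The mesenchymal programme was lower in ePP-β. Of 39 compared genes, 31 were lower (79.5%) and 3 higher (7.69%), beside 15.2% and 14.9% of all genes. The median difference was -2.82. With GC centring 29 were lower and 1 higher, beside 9.09% and 7.16% of all genes, and the median was -3.22. The fibroblast matrix genes summed to 1264 and 1295 TPM in ePP-β, 4457 TPM in SC-β, 2136 to 3027 TPM in ePP and 6132 TPM in PP2. These sums lean on FN1 and VIM, which were not lower in ePP-β. FN1 (559 to 990 TPM) and VIM (1351 to 1725 TPM) made up most of the ePP sum. FN1 was also the largest member in PP2, at 3115 TPM against 120 TPM in SC-β. COL1A1, in contrast, was at 7.69 to 15.7 TPM in ePP and 310 TPM in PP2.

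COL1A1, the main chain of type I collagen (chr17:50184101-50201632, minus strand), was at 8.63 and 5.90 TPM in ePP-β against 896 TPM in SC-β, a difference of -6.78. COL3A1 (type III collagen) was at 29.7 and 22.8 TPM against 1210 TPM (-5.49). COL5A1 and COL6A3 were below 0.5 TPM in ePP-β and at 83.3 and 77.0 TPM in SC-β. The small proteoglycans of collagen fibrils showed the same pattern. DCN (decorin) was at 0.956 and 1.11 TPM against 98.4 TPM, and LUM (lumican) at 1.17 and 1.47 TPM against 93.4 TPM. In all, 13 of 18 matrix genes were lower (72.2%) and 1 higher (5.56%), beside 15.2% and 14.9% of all genes. After GC centring 13 were lower and 0 higher, beside 9.09% and 7.16% of all genes.

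The other 5 matrix genes did not follow, among them FBN1 (fibrillin), which was not called. FN1 (fibronectin) was higher at 376 and 367 TPM against 120 TPM, and lost its call with GC centring. COL5A2 (161 and 179 against 97.4 TPM), VIM (454 and 507 against 248 TPM) and the elastic fibre gene MFAP4 (88.6 and 74.7 against 77.4 TPM) were not called. VIM (vimentin) was at 1351 to 1725 TPM in ePP, far above both kinds of β-like cells.

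Transcription factors and receptors of mesenchyme were lower for 10 of 11 compared genes (90.9%) and higher for 1 (9.09%), beside 15.2% and 14.9% of all genes. After GC centring the counts were 10 and 1, beside 9.09% and 7.16% of all genes. The list summed to 27.8 and 27.2 TPM in ePP-β, 285 TPM in SC-β, 32.8 to 43.3 TPM in ePP and 289 TPM in PP2. TCF21, a factor of visceral mesenchyme (chr6:133889113-133895553, plus strand), was listed at 0 in ePP-β replicate 1, at 0.0279 TPM in replicate 2 and at 32.7 TPM in SC-β. FOXF1, the factor of gut-tube mesenchyme, was at 0.0246 and 0.0308 TPM against 29.8 TPM. NR2F1 was at 2.42 and 1.63 TPM against 103 TPM, and PDGFRB, a receptor of fibroblasts and pericytes, at 1.42 and 1.61 TPM against 43.5 TPM. TCF21 and FOXF1 were thus at or near 0 in ePP-β and present in SC-β, whereas TWIST1 (3.99 and 3.55 against 21.9 TPM) and SNAI2 (4.42 and 3.46 against 25.5 TPM) were present in both. PRRX1, TBX18 and MEOX1 stayed under 1 TPM in the 3 libraries. ZEB1, a repressor of epithelial genes, was the exception, at 13.9 and 15.3 TPM against 2.46 TPM (2.18), and kept its call after GC centring.

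Smooth muscle and pericyte genes were lower for 8 of 10 (80%) and higher for 1 (10%), beside 15.2% and 14.9% of all genes. After GC centring 6 were lower and 0 higher, beside 9.09% and 7.16% of all genes. ACTA2 (smooth muscle actin) was at 47.0 and 34.8 TPM in ePP-β against 478 TPM in SC-β (-3.53). DES (desmin) was at 0.246 and 0.0727 TPM against 36.8 TPM (-5.03). Both were at lower levels in PP2, at 35.2 and 0.895 TPM, so that SC-β also lay above the progenitor of its own batch. RGS5, a pericyte gene, was higher at 7.29 and 7.43 TPM against 2.18 TPM and lost its call after GC centring.

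**Figure D5:**
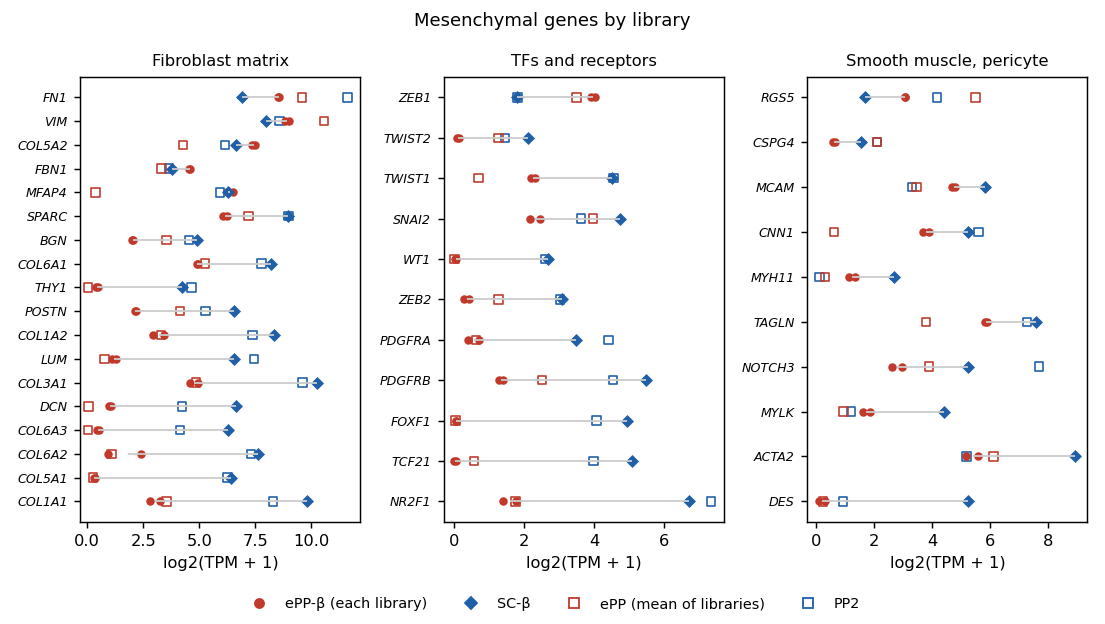
Levels of compared mesenchymal genes on the log2(TPM + 1) scale, with circles for each ePP-β library, diamonds for SC-β and open squares for the mean of 4 ePP libraries and PP2. The diamond lies right of both circles for 32 of 39 genes, and COL1A1 (-6.78), NR2F1 (-5.11) and DES (-5.03) end the panels.

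The progenitors of the same batches were set beside the β-like cells to see which differences were present before the last stage. Over all compared genes, 4.72% were more than 2-fold higher in every ePP library than in PP2 and 18% were lower. Of the genes lower in ePP-β, 1637 (56.9%) were also lower in ePP than in PP2 and 13 were higher. Of the genes higher in ePP-β, 422 (14.9%) were also higher in ePP and 144 were lower. Seen from the progenitors, 48.1% of the genes lower in ePP and 47.2% of those higher in ePP were called the same way in ePP-β. Both comparisons span the same batches, so that a batch effect would enter both.

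The programmes differed in this respect. Of the 39 mesenchymal genes, 25 were lower in ePP than in PP2 and 2 were higher. The lower genes were 14 of 18 matrix genes, 8 of 11 factors and receptors, and 3 of 10 smooth muscle and pericyte genes. Of the 20 intestine genes, 2 were higher in ePP than in PP2 and 7 were lower. For the 18 liver genes the counts were 0 and 15, and for the 15 duct genes 4 and 5. Matrix genes, factors and receptors were thus mostly lower at both stages, smooth muscle and pericyte genes mostly at the later stage, whereas the higher intestine genes of ePP-β were mostly not higher in ePP. Of the 68 endocrine genes, 23 were lower in ePP than in PP2 and 2 were higher, and the islet hormones together summed to at most 0.347 TPM in ePP and 2.43 TPM in PP2.

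The protein-coding genes with the widest separation, ranked without regard to lists, held similar members. Of the 15 with the widest gap above SC-β, APOA4 and FABP2 are in the intestine list. Also among them were MUC13, a membrane mucin of gut epithelium (496 and 521 against 4.35 TPM), RBP2, the intestinal retinol-binding protein (217 and 182 against 1.06 TPM), and MEP1B, a brush border protease (79.3 and 135 against 0.163 TPM). SLC10A2, the bile acid transporter of the ileum, was at 26.7 and 30.1 TPM and listed at 0 in SC-β. MEP1B overlaps GAREM1, and with no statement on strand its value is uncertain. The same holds for ACSL5 (with ZDHHC6), C3 (with GPR108) and CP (with HPS3), and for APOA4, RBP2, MMP1 and LAMP5, which overlap noncoding genes, a pseudogene or unnamed genes.

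Others in this group carry immune and secretory roles. CCL20, a chemokine of gut epithelium, was at 58.3 and 88.3 TPM against 0.157 TPM. PIGR, which carries immunoglobulin A across epithelium, was at 49.5 and 50.5 TPM against 0.0876 TPM. C3, a complement protein, was at 130 and 141 TPM against 1.74 TPM. Further members were ACSL5, CP, HSD3B2, MMP1 and LAMP5, and HSD3B2 was listed at 0 in SC-β.

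Of the 15 genes with the widest gap below SC-β, COL1A1, COL5A1, COL6A3 and DCN are in the matrix list. COLEC11, a collectin, was at 0.00132 and 0.0209 TPM in ePP-β against 176 TPM in SC-β. EMILIN1, an elastic fibre protein, was at 1.31 and 1.39 TPM against 343 TPM, and CD248 (endosialin), a marker of stromal cells, at 0.983 and 0.646 TPM against 163 TPM. EMILIN1 and CD248 are, like the collagens, genes of the matrix or of stromal cells. APLNR, the apelin receptor, was at 0.133 and 0.106 TPM against 110 TPM. UCN, a peptide of the corticotropin-releasing family, was at 1.23 and 3.58 TPM against 320 TPM, but overlaps TRIM54. LRRC61, which overlaps ACTR3C, was likewise lower. These values are uncertain, as are those of ANGPTL6 (with SHFL), ADGRA2 (with BRF2), COLEC11, COL1A1, CD248, COL5A1, HSPB6 and SPON2, which overlap other annotated genes. Overlaps were looked up for these 30 genes only. The other members were NPR3, ANGPTL6, HSPB6, ADGRA2 and SPON2. Of these 15 genes, all but UCN and NPR3 were also more than 2-fold lower in every ePP library than in PP2. LRRC61 was at 57.8 TPM in SC-β and 80.5 TPM in PP2, ADGRA2 at 80.5 and 77.2 TPM, and ANGPTL6 at 56.5 and 50.6 TPM. All 30 genes kept their calls after GC centring.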

How the data were processed

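RNA was measured in 3 libraries of the MEL1 line (2 ePP-β, 1 SC-β), with 4 ePP libraries and 1 PP2 library as background. Groups follow the sample titles. Per the labels and the study's methods, the authors purified total RNA on columns, prepared NEBNext Ultra libraries, aligned reads to GRCh38 and estimated gene levels with StringTie. The aligner, HISAT2 2.1.0, is from the submitters' processing notes. Neither the release of the annotation nor strand use was given in the sources used here. The values deposited by the authors are in TPM per Ensembl gene identifier. TPM keeps no depth, sequencing depth is therefore unknown, and the spread of the 2 ePP-β libraries is the only measure of precision. All 37 mitochondrial genes were listed at 0 in the 3 libraries, so that a 0 may be a value that was never estimated.

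Values were transformed as log2(TPM + 1), which understates differences of genes with low TPM. Genes with at least 1 TPM in the ePP-β mean or in SC-β were compared. A filter that asks for 2 libraries would have dropped genes present in SC-β alone. A gene was called where both ePP-β libraries differed from SC-β by more than 1 in the same direction. No test was run, since SC-β had 1 library in another batch. Symbols, positions and transcript GC content came from GENCODE 44 (60370 of 60624 identifiers matched). GC centring subtracted the median difference within 20 bins of GC content and was added after seeing the data.

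The members and the 22 gene lists (287 genes, all matched, 229 of them compared) were chosen with earlier results of these data known. Named genes were the leading hormones and factors of each list, up to 6 called genes per list and direction with the largest gap at 10 TPM or more, and up to 15 protein-coding genes per direction over all genes. Those named outside this rule were chosen after their values were seen (among them LCT, ALPI, KRT20, MLN, CCK, AFP, VIM, MFAP4, FBN1, COL5A2, RGS5, PRSS1 and the members given as near 0). Alternatives were other pseudocounts, filters, scalings and fold limits, and leaving out either ePP-β library. The code, in Python 3.11.15 with pandas 2.3.3 and numpy 2.4.6, was tested on simulated data. Figures used matplotlib 3.10.9. A few members are counted in their lists but not reported singly here.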

Additional observations from a re-analysis of the deposited data

How the results depend on the processing

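The direction of the exocrine, gut and mesenchymal medians was kept under every setting run. Signs were checked for 253 genes, the compared list members and the genes with the widest gaps. Of these, 154 were called and no called gene changed sign. The endocrine median (0.13) was 0.30 with a filter of 5 TPM and reversed to -0.033 when each library was centred on its median, so that it has no firm sign; without either ePP-β replicate it ranged from 0.05 to 0.20. The exocrine median (0.45) was 0.72 with GC centring, 0.72 with a filter of 5 TPM, 0.29 with median centring, 0.23 with no filter, 0.69 and 0.66 with pseudocounts of 0.01 and 0.1, 0.51 with quantile normalization, 0.54 when rescaled over protein-coding genes, and 0.59 to 0.66 without either replicate. The gut median (stomach, intestine and liver genes, 0.82) was 1.14 with GC centring, 0.65 with a filter of 5 TPM, 0.65 with median centring, 0.32 with no filter, 0.88 with quantile normalization and 0.87 when rescaled. The mesenchymal median (-2.82) was -3.22, -2.88, -2.99 and -2.70 under the first 4 of these settings, -3.56 with either pseudocount and -3.05 when rescaled. Genes higher numbered 1350 with GC centring and 395 over 4-fold, against 2830, and genes lower 1713 and 768, against 2877. The share of calls that were higher was 44.1% with GC centring and 34% over 4-fold, against 49.6%. The median over all genes went from 0.17 to 0.01 with median centring. No paired analysis was possible because SC-β has 1 library, which carries no replicate number shared with ePP-β. The cause of these shifts was not tested. SC-β had no replicate, so its own spread is unknown, and the limits of read depth cannot be given from TPM.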

Other observations

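The counts below stand beside 14.9% of all genes called higher and 15.2% called lower. Of 8 compared genes of neurons and neural crest, 4 were higher in ePP-β and 1 was lower, and 5 and 1 after GC centring. STMN2 (stathmin 2), which endocrine cells also use, was at 1056 and 1073 TPM in ePP-β, 170 TPM in SC-β and at most 2.14 TPM in ePP. DCX (doublecortin) was at 28.8 TPM in both ePP-β libraries and 3.19 TPM in SC-β, and NEFL (neurofilament light chain) at 120 and 112 TPM against 20.7 TPM. SOX10, a factor of neural crest and glia, was lower, at 1.54 and 0.815 TPM against 14.5 TPM, and was at most 0.0291 TPM in the progenitors. GLIS3, a factor needed for insulin expression, was the single progenitor list gene that was higher (10.7 and 10.4 against 0.452 TPM).

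Of 11 endothelial genes, 7 were under 1 TPM in both kinds of cells, and of the 4 compared 0 were higher and 2 lower. CLDN5, a claudin that other cells also use, was at 17.0 and 5.82 TPM against 10.9 TPM. KDR (VEGF receptor 2) was at 0.564 and 0.354 TPM in ePP-β, 3.22 TPM in SC-β and 35.4 TPM in PP2. Of 8 blood cell genes 2 were compared, and PTPRC, which marks white blood cells, was at most 0.0129 TPM in the 3 libraries. The lysozyme gene LYZ, which gut epithelium also uses, was at 71.4 and 75.0 TPM against 17.9 TPM. Of the pluripotency genes, POU5F1 and NANOG were at most 0.12 and 0.0281 TPM, and 3 of 6 were compared, with 2 lower. For cell division, 3 of 10 genes were higher (TOP2A at 41.0 and 38.9 TPM against 16.1 TPM, and CCNB1 at 43.3 and 48.4 TPM against 16.8 TPM) and none of these calls was kept after GC centring. All 10 were more than 2-fold lower in ePP-β than in every ePP library and in SC-β than in PP2.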
